A study of Danio rerio with 6 samples.

Results

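Complex I, the NADH dehydrogenase of mitochondria, was represented by 50 of the 32057 gene IDs in the count table, namely every ID whose gene symbol begins with nduf. These were 38 structural subunits, 8 assembly factors of the *ndufaf* series and 4 members of the *ndufa4* family. The 38 include *ndufa9b*, which RefSeq lists as a pseudogene. All 50 are counted below, and 49 of them had enough counts for edgeR and entered the comparison. The exception was *ndufa4l2b*, which had 0 counts in each of the 6 libraries. Membership followed the symbol alone, but this gene family was chosen with earlier results of these data known.

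The counts came from SMART-seq of regenerated larval zebrafish tail fins at 24 h post amputation (hpa), with 50 fins pooled per library. The control group was wild-type larvae that received DMSO (replicates 1 to 3). The rapamycin group was labelled as mtor inhibition and received 1 µM rapamycin, a drug that blocks mTOR complex 1, from 2 days post fertilization (dpf) (replicates 4 to 6). The study used AB and transgenic fish and amputated the tail fins at 3 dpf. Both groups were therefore amputated and regenerating, and no uncut fin was among the 6 libraries. A fin pool mixes all cell types of the regenerate, so fewer cells of a type and less RNA per cell cannot be told apart.

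Complex I takes electrons from NADH and passes them along a chain of iron-sulfur clusters to ubiquinone, and it uses the energy to move protons across the inner membrane. The N module holds the NADH site, the Q module holds the quinone site, and the membrane arm carries the proton channels. The core subunits do the catalysis and are shared with bacteria, and the accessory subunits surround them. The membrane core is encoded by mitochondrial DNA and all other subunits by nuclear genes. Assembly factors join the modules and leave the finished enzyme. In mammalian cells mTORC1 favours the expression of nuclear genes of the respiratory chain, in part through their translation, which counts of RNA do not show. Module names below follow the mammalian enzyme.

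The libraries held 49055607 to 54162044 counts. The rapamycin libraries lay together at 59.1 to 60.0 on the first principal component, while the control libraries lay at -8.84 (replicate 1), -77.4 and -92.4. Spearman's rho across genes between gene span (the length on the chromosome) and the deviation from the gene mean was 0.210 in control replicate 1 and 0.157 to 0.298 in the rapamycin libraries, against -0.339 and -0.284 in control replicates 2 and 3. By epidermal keratin *krt4* (at least 27035 CPM) and the fin fold gene *and1* (at least 22916 CPM) every library held the labelled tissue. CPM are counts scaled to library size and TMM factor, per 1e6 counts.

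Structural subunits of complex I were lower in the rapamycin libraries as a group, and few of them passed the test singly. All 38 had a log2 fold change below 0, where 49.9% of all 19778 tested genes did. Their median log2 fold change was -0.62, a 1.53-fold higher level in the control, beside 0.00 over all tested genes. The values ran from -0.92 (*ndufs3*) to -0.02 (NDUFS8). In edgeR's quasi-likelihood test 2 of the 38 fell, *ndufa12* and *ndufs3*, and 36 did not pass. Over all members, *ndufa4* family included, 3 of 49 (6.12%) fell and 0 rose, where 3.27% of all tested genes fell and 1.97% rose. Beside the 2 subunits (5.26% of the 38) this count holds *ndufa4b*, whose family is now placed with complex IV. Of the 8 assembly factors 0 fell. At an unadjusted p under 0.05, 29 members were lower and 0 higher in edgeR, against 13.3% of all tested genes lower and 10.1% higher. DESeq2 called 19 members lower and 0 higher (7.78% of all genes lower and 5.06% higher), and limma-voom called 3 lower and 0 higher (3.43% of all genes lower and 2.87% higher). With scaling by library size only edgeR called 8 members lower (3.68% of all genes lower and 1.44% higher), and among genes with at least 10 counts in every library it called 6 lower (4.64% lower and 2.80% higher).

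**Figure D1:**
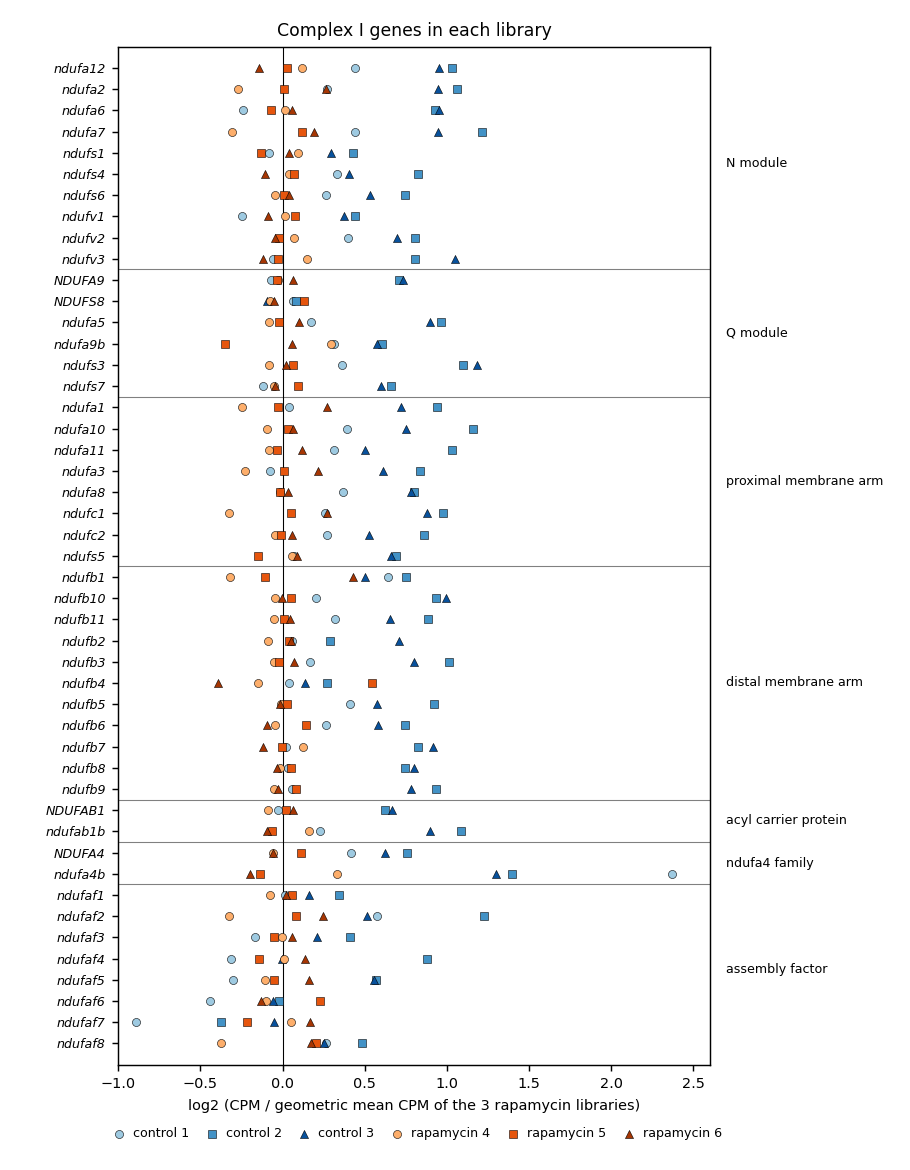
Each row is a tested complex I gene and each symbol a library. The horizontal axis is the log2 ratio of its CPM to the geometric mean of the 3 rapamycin libraries, and lines separate the modules. Control replicates 2 and 3 lie to the right in most rows, and control replicate 1 lies nearer to the rapamycin libraries. NDUFA4L2, at 4 to 60 counts per library, is left out.

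The difference came mainly from control replicates 2 and 3. Summed over the 38 structural subunits, the level was 2577, 4182 and 3959 CPM in control replicates 1, 2 and 3, and 2374, 2432 and 2426 CPM in rapamycin replicates 4, 5 and 6. In the median over the subunits, control replicate 2 lay 0.82 and control replicate 3 lay 0.70 above the mean of the rapamycin libraries on the log2 CPM scale, and control replicate 1 lay 0.19 above it. Control replicate 1 was the lowest control library for 36 of the 38 subunits, where it was the lowest for 38.6% of all tested genes. It still exceeded every rapamycin library for 21 of them, so that the groups did not overlap for these 21 (55.3%). Over all tested genes 15.9% were lower without overlap.

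The spread between replicates was wider in the control group. The median coefficient of variation of a structural subunit was 25.4% in the control and 6.05% in the rapamycin libraries, and it was the larger in the control for 34 of 38. Over all tested genes the medians were 28.4% and 14.5%, and the coefficient was the larger in the control for 75.0% of them. Without control replicate 1, edgeR called 34 of the 38 structural subunits lower, where it called 15.6% of all tested genes lower and 15.5% higher. The other 4 were NDUFS8, *ndufb1*, *ndufb4* and *ndufa9b*. Without control replicate 2 it called 0 of the 49 members (0.335% of all genes lower and 0.232% higher). Without control replicate 3 it called 1, *ndufa4b* (2.32% of all genes lower and 1.62% higher). Without rapamycin replicate 4, 5 or 6 it called 0 in each run, where it called 0.387%, 0.318% and 0.318% of all genes lower and 0.230%, 0.230% and 0.288% higher, so that 0 of 49 was near the background. The median log2 fold change of the structural subunits lay between -0.77 and -0.47 over the 6 runs that each left out a library.

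The N module takes the electrons from NADH. Its 10 members had a median log2 fold change of -0.64, with a range from -0.88 to -0.22. The accessory subunit gene *ndufa12* (ENSDARG00000042469) stood at 63.2, 95.4 and 90.2 CPM in the control libraries and at 50.6, 47.5 and 42.2 CPM in the rapamycin libraries. All control libraries were above all rapamycin libraries, and control replicate 1 was the nearest to them. Its level fell, with means of 82.9 ± 17.3 CPM (SD, n = 3) in control and 46.8 ± 4.26 CPM after rapamycin (SD, n = 3). Its log2 fold change was -0.83 (edgeR SE 0.20, adjusted p = 0.0450). The adjusted p lay between 8.75e-04 and 0.199 when single libraries were left out of the edgeR fit.

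*ndufa7*, another accessory subunit, had the lowest log2 fold change of the module, -0.88 (standard error 0.24), and did not pass (edgeR adjusted p = 0.0672). It had 28.2, 48.3 and 40.0 CPM in control libraries and 16.8, 22.5 and 23.7 CPM after rapamycin, with no overlap.

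The 3 core subunits of this module had log2 fold changes from -0.64 to -0.22, and they were not compared by a test. *ndufv1*, whose product binds NADH and the flavin FMN, had 99.99, 161 and 154 CPM in control libraries and 120, 125 and 112 CPM after rapamycin. The groups overlapped, and control replicate 1 was the lowest of all libraries (log2 fold change -0.22, standard error 0.21, edgeR adjusted p = 0.555). *ndufs1*, which carries several iron-sulfur clusters, had 104, 149 and 135 CPM against 118, 101 and 114 CPM, and control replicate 1 lay among the rapamycin libraries (-0.23, edgeR adjusted p = 0.493). *ndufv2*, the partner of *ndufv1*, had 55.7, 74.2 and 68.5 CPM in control libraries and 44.4, 41.8 and 41.0 CPM after rapamycin. Its groups did not overlap, and its log2 fold change of -0.64 (standard error 0.17) did not pass (edgeR adjusted p = 0.0626).

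The Q module passes the electrons to ubiquinone. Its 7 members had a median log2 fold change of -0.48 and held both ends of the range of the structural subunits. The median was the value of *ndufa9b*, which RefSeq lists as a pseudogene. *ndufs3* (ENSDARG00000015385), a core subunit, had 72.1, 120 and 127 CPM in control libraries and 53.0, 58.6 and 56.7 CPM after rapamycin. All control libraries were higher, replicates 2 and 3 by the most. Its level fell, with means of 106 ± 29.9 CPM (SD, n = 3) in control and 56.1 ± 2.86 CPM after rapamycin (SD, n = 3). Its log2 fold change was -0.92 (edgeR SE 0.22, adjusted p = 0.0475, and 4.19e-04 to 0.197 without single libraries).

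NDUFS8 (ENSDARG00000051986), a core iron-sulfur subunit, was level across the libraries. It had 30.0, 30.5 and 27.0 CPM in control libraries and 27.3, 31.5 and 27.8 CPM after rapamycin, a log2 fold change of -0.02 (edgeR SE 0.17, adjusted p = 0.969). Control replicates 2 and 3 did not stand above the rest for this gene. RefSeq lists *ndufs8a* and *ndufs8b* in zebrafish and gives ndufs8 as an older name of *ndufs8a*, and the table holds a single ID of the name.

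*ndufs7*, which holds the last iron-sulfur cluster before the quinone, had 93.3, 160 and 153 CPM in control libraries and 97.8, 108 and 98.1 CPM after rapamycin (log2 fold change -0.42, standard error 0.22, edgeR adjusted p = 0.284). Control replicate 1 was the lowest of the 6 libraries and the other controls were the highest.

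NDUFA9 and *ndufa9b* share a name stem, and RefSeq lists *ndufa9b* as a pseudogene. NDUFA9, an accessory subunit at the junction with the membrane arm, had 76.9, 132 and 134 CPM in control libraries and 79.4, 78.9 and 84.3 CPM after rapamycin (-0.50, edgeR adjusted p = 0.215). *ndufa9b* had 4.53, 5.55 and 5.43 CPM against 4.47, 2.86 and 3.80 CPM (-0.48, edgeR adjusted p = 0.352). The fold changes were close. Whether reads were assigned to the wrong copy was not tested.

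Genes of the membrane arm had medians close to that of the N module. The 8 members of the proximal part ranged from -0.80 (*ndufa10*) to -0.50, with a median of -0.62. The 11 *ndufb* genes of the distal part ranged from -0.75 (*ndufb10*) to -0.09 (*ndufb4*), with a median of -0.63. None of the 19 passed in edgeR at an adjusted p under 0.05 (3.27% of all tested genes lower). Unadjusted, 16 were below it (13.3% of all tested genes lower). DESeq2 called 9 of them (7.78% of all genes lower) and limma-voom 0 (3.43% lower). The groups did not overlap for 4 of the 8 proximal and 7 of the 11 distal members, where 15.9% of all tested genes were lower without overlap. *ndufa10* had the lowest fold change of the proximal part, with 112, 190 and 144 CPM in control libraries and 79.9, 87.4 and 89.1 CPM after rapamycin (edgeR adjusted p = 0.0599).

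The acyl carrier protein of mitochondria is a subunit of complex I and also serves mitochondrial fatty acid synthesis, and 2 IDs bore its name. *ndufab1b* had 73.3, 133 and 116 CPM in control libraries and 70.1, 59.9 and 58.6 CPM after rapamycin, with no overlap (log2 fold change -0.77, standard error 0.23, edgeR adjusted p = 0.0819). NDUFAB1 had 91.4, 143 and 148 CPM against 87.9, 94.7 and 97.6 CPM, and its groups overlapped (-0.45, standard error 0.21, edgeR adjusted p = 0.229). RefSeq gives ndufab1 as an older name of *ndufab1b*. Whether reads were shared between these IDs was not tested. The difference between the 2 IDs was not tested.

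**Figure D2:**
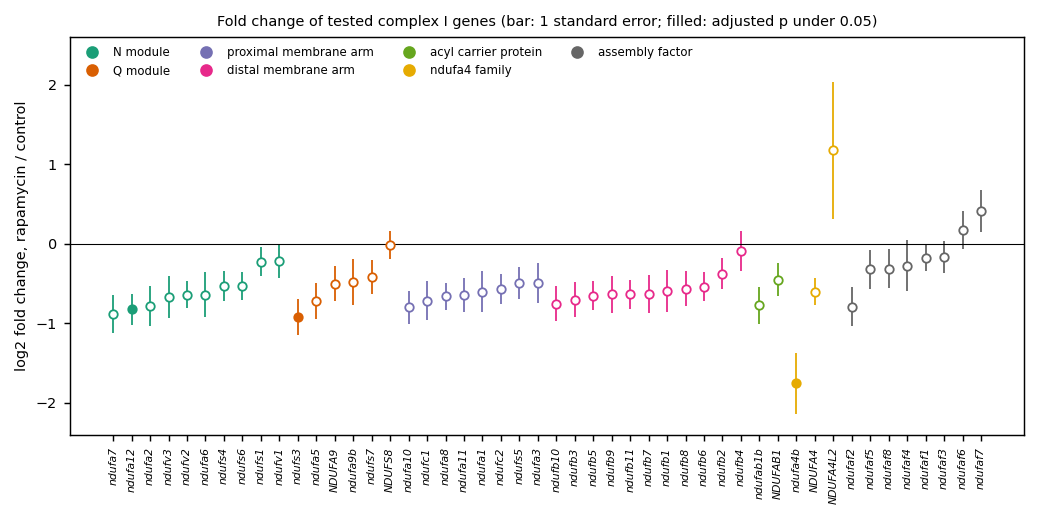
The log2 fold change of rapamycin over control (vertical axis) is drawn for 1 gene at each position, by module, with a bar of 1 standard error. Filled symbols mark *ndufa12*, *ndufs3* and *ndufa4b*, the genes past an adjusted p of 0.05 in edgeR, and every structural subunit drawn lies below 0.

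Accessory subunit genes of complex I were short, and gene span moved with the libraries. The 31 accessory subunits had a median log2 fold change of -0.63 and a median span of 4980 bases, beside 17375 bases over all tested genes with a known span. With the dependence on span taken out of each library, the median of the 30 with a span moved from -0.64 to -0.40. The span trend had the same sign in all rapamycin libraries and the opposite sign in control replicates 2 and 3. Its removal may therefore also take out a treatment difference, and these cannot be told apart. The 7 nuclear core subunits had a median span of 16456 bases, and their log2 fold changes ran from -0.92 to -0.02. In the fit with the span trend removed the median of the core subunits was -0.30. Core and accessory subunits were not compared by a test. Over the 37 structural subunits with a span the median then moved from -0.63 to -0.39, 35 of them stayed below 0, and 0 members were called, where 3.44% of all genes with a span were called lower and 2.75% higher. The smallest adjusted p of a structural subunit in that fit was 0.0629 (*ndufa12*). Spans were known for 46 of the 49 tested members and for 69.4% of all tested genes. Among the structural subunits *ndufs3*, *ndufa7* and *ndufa12* had the lowest fold changes, with spans of 5714, 7728 and 8677 bases.

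**Figure D3:**
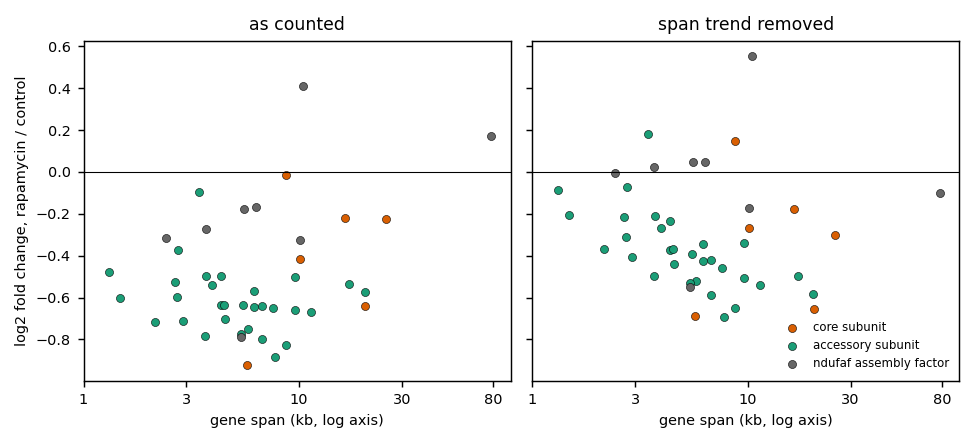
The log2 fold change (vertical axis) is set against gene span in kilobases (log axis) for complex I genes, as counted on the left and with the span trend of each library removed on the right. Removing the trend raised the medians of the accessory subunits to -0.40 and of the *ndufaf* genes to 0.01. The trend had the same sign in all rapamycin libraries, so its removal may also take out a treatment difference.

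Assembly factors of the *ndufaf* series had a smaller median difference than the structural subunits. Their 8 log2 fold changes ran from -0.79 (*ndufaf2*) to 0.41 (*ndufaf7*), with a median of -0.23, and 6 of the 8 were below 0. None passed in edgeR (3.27% of all tested genes lower), with 1 at an unadjusted p under 0.05 (*ndufaf2*), beside 13.3% of all tested genes lower. DESeq2 also called *ndufaf2* (7.78% of all genes lower), while limma-voom called 0 (3.43% lower). For 8 genes a count of 0 was near these shares. The groups overlapped for 6 of the 8, and 2 (25%) were lower without overlap, beside 15.9% of all tested genes. With the span trend removed the median was 0.01, and 4 of the 8 were below 0. Whether the assembly factors differ from the subunits was not tested.

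*ndufaf2* (ENSDARG00000069286) is a paralog of *ndufa12*, and in mammals its product sits in the place of NDUFA12 until late in assembly. It had 58.3, 91.6 and 56.0 CPM in control libraries and 31.3, 41.4 and 46.4 CPM after rapamycin. All control libraries were higher, and here control replicate 3 was the lowest of them. Its log2 fold change was -0.79 (edgeR SE 0.24, adjusted p = 0.0890 and 0.0231 from DESeq2), close to that of *ndufa12*.

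The partners *ndufaf3* and *ndufaf4* help to build the Q module. *ndufaf3* had 24.7, 36.9 and 32.1 CPM in control libraries and 27.7, 26.8 and 28.9 CPM after rapamycin (-0.17, edgeR adjusted p = 0.642). *ndufaf4* had 6.22, 14.2 and 7.72 CPM against 7.77, 6.98 and 8.50 CPM (-0.27, edgeR adjusted p = 0.642). For *ndufaf4* a single library, control replicate 2, was high, and without it the log2 fold change was 0.15.

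*ndufaf5* and *ndufaf7* modify core subunits, the former by hydroxylation of NDUFS7 and the latter by methylation. *ndufaf5* had 22.2, 40.5 and 40.3 CPM in control libraries and 25.4, 26.4 and 30.5 CPM after rapamycin (-0.32, edgeR adjusted p = 0.465), with control replicate 1 below all others. *ndufaf7* had 6.64, 9.50 and 11.9 CPM against 12.8, 10.6 and 13.9 CPM (0.41, standard error 0.26, edgeR adjusted p = 0.374). It had the highest log2 fold change of the series, and control replicate 3 lay within the rapamycin libraries. *ndufaf8*, whose product partners that of *ndufaf5*, had 9.15, 10.7 and 9.08 CPM against 5.88, 8.77 and 8.62 CPM without overlap (-0.31, edgeR adjusted p = 0.476).

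*ndufaf1*, which joins the proximal membrane arm in the MCIA complex, had 45.9, 57.6 and 50.9 CPM in control libraries and 43.0, 47.3 and 46.1 CPM after rapamycin (-0.18, edgeR adjusted p = 0.552). *ndufaf6*, an early factor, had 7.08, 9.49 and 9.26 CPM against 8.99, 11.3 and 8.79 CPM (0.17, edgeR adjusted p = 0.695). Neither gene separated the groups.

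Other assembly factors of complex I, with names outside the series, were followed by a list of 12, of which 10 were in the table and 9 were tested. *foxred1* (ENSDARG00000099705), needed for complex I assembly in human cells, was the only one that passed in edgeR (11.1% of the 9, beside 3.27% of all tested genes lower). It had 11.1, 15.3 and 18.0 CPM in control libraries and 4.51, 4.18 and 5.81 CPM after rapamycin, with every control library well above. It fell, with means of 14.8 ± 3.47 CPM (SD, n = 3) in control and 4.83 ± 0.860 CPM after rapamycin (SD, n = 3). The log2 fold change was -1.61 (edgeR SE 0.26, adjusted p = 0.0130, and 8.25e-04 to 0.0858 without single libraries). With the span trend removed its adjusted p was 0.0117.

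The other 8 ranged from -0.53 (*timmdc1*) to 0.00 (*nubpl*), and the median of the 9 was -0.40. *ecsit* and *acad9*, parts of the MCIA complex, had log2 fold changes of -0.34 and -0.35, and the groups overlapped for both. Control replicate 1 was again the lowest control for 8 of the 9.

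**Figure D4:**
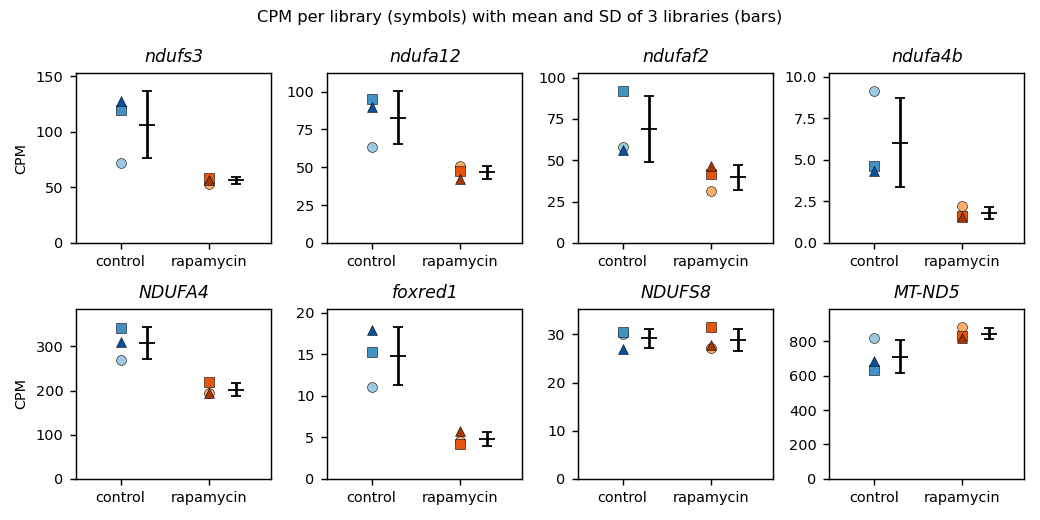
CPM (vertical axes, from 0) of 8 genes in the 3 control and 3 rapamycin libraries, with the mean and SD of each group as bars. The groups are apart for *ndufs3*, *ndufa12*, *ndufaf2*, *ndufa4b*, NDUFA4 and *foxred1*, NDUFS8 is level, and MT-ND5 is slightly higher in the rapamycin libraries.

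NDUFA4 was first described as a part of complex I and is now placed with complex IV, and its family gave the largest fold change of a member. *ndufa4b* (ENSDARG00000056108, span 3504 bases) had 9.12, 4.64 and 4.32 CPM in control libraries and 2.22, 1.60 and 1.54 CPM after rapamycin. It fell, with means of 6.03 ± 2.68 CPM (SD, n = 3) in control and 1.79 ± 0.374 CPM after rapamycin (SD, n = 3). The log2 fold change was -1.76 (edgeR SE 0.38, adjusted p = 0.0332). Control replicate 1 was the highest library for this gene, the reverse of its place among the structural subunits. The adjusted p was 0.0119 to 0.155 without single libraries, and 0.0546 with the span trend removed.

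NDUFA4 (ENSDARG00000099499) had 269, 341 and 310 CPM in control libraries and 194, 218 and 194 CPM after rapamycin, without overlap. Its log2 fold change of -0.60 (standard error 0.17) did not pass (edgeR adjusted p = 0.0724). RefSeq gives ndufa4 as an older name of *ndufa4b*, and how reads were divided between these IDs is not given in the sources used here.

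NDUFA4L2, whose human counterpart is induced by low oxygen, had 18, 25 and 4 counts in the control and 18, 26 and 60 counts in the rapamycin libraries. Its log2 fold change of 1.17 (edgeR SE 0.86, adjusted p = 0.449) did not pass, and the groups overlapped, with rapamycin replicate 6 the highest. The 0 counts of *ndufa4l2b* allow up to 0.0190 CPM for control and 0.0187 CPM for rapamycin, from a limit of 3 counts per group that covers counting error only.

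The 7 subunits of complex I that mitochondrial DNA encodes did not follow the nuclear ones. Their sum was 2775, 2135 and 1776 CPM in control replicates 1, 2 and 3, and 2387, 2354 and 2405 CPM in rapamycin replicates 4, 5 and 6. Control replicate 1 was the highest library and the other controls the lowest, while in the nuclear sum replicates 2 and 3 were the highest. The log2 fold changes ran from -0.35 to 0.27 with a median of 0.08. In edgeR 0 of 7 passed, where 3.27% of all tested genes fell and 1.97% rose. None was below an unadjusted p of 0.05, beside 13.3% of all tested genes lower and 10.1% higher. DESeq2 called 0 (7.78% of all genes lower and 5.06% higher), and limma-voom called 0 (3.43% lower and 2.87% higher). For 7 genes these counts were near the background.

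MT-ND1 had 274, 272 and 213 CPM in control libraries and 197, 201 and 197 CPM after rapamycin, without overlap (log2 fold change -0.35, edgeR adjusted p = 0.247). MT-ND5 had 817, 630 and 685 CPM against 881, 833 and 820 CPM, also without overlap but in the other direction (0.25, edgeR adjusted p = 0.424). Over all tested genes 15.9% were lower and 14.8% higher without overlap. Among the runs that each left out a library, the median of the 7 changed sign only without control replicate 3. It was 0.27 without control replicate 1, where edgeR called 2 of the 7, *mt-nd4l* and MT-ND5, higher. That run called 15.5% of all tested genes higher and 15.6% lower. The median of the 7 was -0.14 without control replicate 3, where 0 were called (2.32% of all genes lower and 1.62% higher). The median of the nuclear structural subunits was -0.77 without control replicate 1. The difference between the 2 genomes was not tested.

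Other nuclear genes of the respiratory chain, and those of the mitochondrial ribosome, had medians of similar size. The median log2 fold change was -0.61 over 9 genes of complex III (1 fell, 11.1%) and -0.60 over 19 of complex IV (4 fell, 21.1%). It was -0.63 over 20 of the ATP synthase (4 fell, 20%) and -0.48 over 75 of the mitochondrial ribosome (4 fell, 5.33%). In each list 0 rose, where 3.27% of all tested genes fell and 1.97% rose. Without control replicate 2, or rapamycin replicate 4, 5 or 6, 0 genes of these lists were called (0.318% to 0.387% of all genes lower). Without control replicate 1, 8 of complex III and 13 of complex IV were called lower (15.6% of all genes). The same run called 18 of the ATP synthase and 51 of the mitochondrial ribosome lower. Without control replicate 3 the counts in this order were 1, 1, 1 and 2 (2.32% of all genes). With the span trend removed they were 0 of 9, 1 of 11, 1 of 17 and 3 of 75 genes with a span (3.44% of all genes with a span). Summed complex III was 1069 CPM in control replicate 1 and 1730 and 1719 CPM in the other controls, against 985 to 1015 CPM in the rapamycin libraries. The same order of libraries thus held for complex III and complex I, and a difference between these groups and complex I was not tested.

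**Figure D5:**
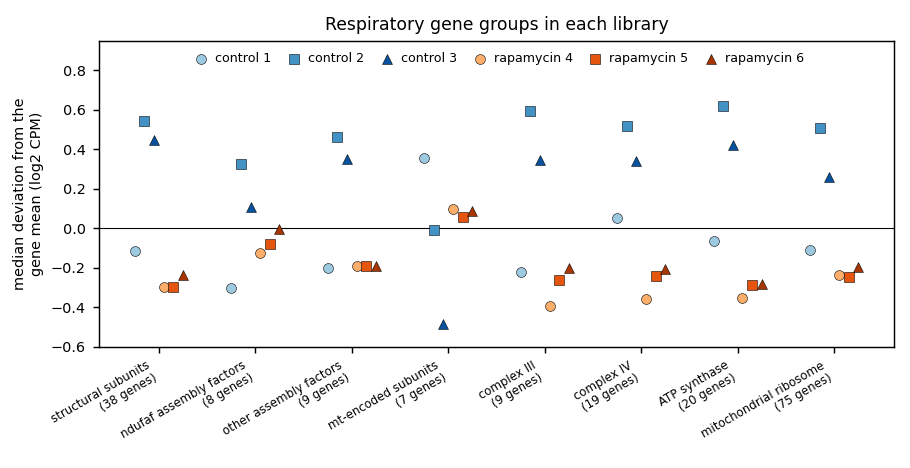
For each gene group the symbols give the median over its genes of the deviation from the gene mean (log2 CPM, vertical axis) in each library. Control replicates 2 and 3 are the highest for all nuclear groups, and for the mitochondrially encoded subunits control replicate 1 is the highest at 0.36 and control replicate 3 the lowest at -0.48.

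Markers of other cells moved with the treatment in part. Of 3 tested erythrocyte genes 2 fell, and their summed level was 84.7 to 105 CPM in the control and 21.2 to 36.8 CPM in the rapamycin libraries. Of 7 tested macrophage genes 2 fell, *c1qa* (0 counts in rapamycin replicates 4 and 6) and *c1qb*, with sums of 25.6 to 46.6 CPM and 35.4 to 40.1 CPM. The median log2 fold change of the 7 was -2.57, with 4 below 0 and 3 above. Without overlap 4 were lower and 1 higher, where 15.9% of all tested genes were lower and 14.8% higher. Only 3 of the 7 had at least 10 counts in every library, and in that fit their median was 0.19. Of 10 tested ionocyte genes, from cells rich in mitochondria, 1 fell (*atp1a1a.3*) and 1 rose (*ca2*), with sums of 152 to 285 CPM and 343 to 371 CPM. Most of each sum was *ca2* (122 to 234 CPM and 328 to 354 CPM), while 9 of the 10 were below 0 on the log2 fold change scale (median -0.71), 3 lower and 1 higher without overlap. Of 7 tested muscle genes 0 passed in edgeR, with 3 lower at an unadjusted p under 0.05 (13.3% of all tested genes lower). All 7 were below 0 on the log2 fold change scale (median -0.38), and 1 was lower without overlap. Their sums were 302 to 417 CPM in the control and 233 to 308 CPM in the rapamycin libraries. Of 4 tested neutrophil genes 1 rose, of 11 epidermal genes 2 rose and of 12 fin mesenchyme genes 1 fell. Over all tested genes 3.27% fell and 1.97% rose. Neutrophil sums were 187 to 290 CPM in the control and 380 to 525 CPM in the rapamycin libraries, with 2 of the 4 genes above 0 and 2 below. Control replicate 1 was the highest control library for the sums of erythrocyte, muscle and ionocyte markers, and the lowest for those of neutrophil (187 CPM against 290 and 282 CPM), epidermal (36556 CPM against 41379 and 49967 CPM) and fin mesenchyme markers. Their part in the complex I values was not tested.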

How the data were processed

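SMART-seq libraries of 50 pooled fins were made from total RNA with SMARTScribe reverse transcriptase, fragmented, amplified and sequenced in paired ends. The authors deposited raw counts per Ensembl gene ID for 6 libraries, with no normalization. For alignment and counting no tool is named. A mouse build, mm10, stands in the submitters' notes, although all IDs are from zebrafish. Symbols came from a table of gene names, and spans and the pseudogene label from RefSeq (GRCz12tu), by symbol or older symbol. No position is given, since the builds differ. Capital symbols are printed in lower case where RefSeq has the same symbol.

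Counts were analysed with R 4.3.3, edgeR 4.0.16, limma 3.58.1 and DESeq2 1.42.0. Genes kept by filterByExpr (19778) were scaled by TMM and compared two-sided with quasi-likelihood fits in edgeR (robust, no covariate). Benjamini-Hochberg adjustment covered all tested genes, and a gene was called at an adjusted p under 0.05. The study's threshold on fold size was not applied. The standard error is the size of the fold change over the root of F. The fit was tested on simulated data. The members, modules and lists were chosen with earlier results of these data known. The values of 1 member are not reported here, and it stays in the fit and in counts over groups. Values per library are given for called members, the other core subunits, *ndufaf* genes, IDs that share a name stem, and the 3 highest and 3 lowest fold changes. Alternatives were other scalings (DESeq2 size factors, upper quartile, library size), omission of the filter, a minimum of 10 counts per library, limma-voom, a Wald test in DESeq2, removal of the span trend by loess, and leaving out each library. The labels give neither batch nor date. Transcript lengths were not used, so levels are not compared between genes.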

Additional observations from a re-analysis of the deposited data

How the results depend on the processing

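No paired analysis was run, because the labels give nothing that pairs a control with a rapamycin library. Of all tested genes edgeR called 647 lower and 390 higher, DESeq2 1539 and 1000, and the runs without 1 library between 65 and 3151 lower and between 47 and 3128 higher, the highest counts being those without control replicate 1. For the tested members, *ndufa4* family included, counts called lower follow, with the share of all genes called lower in the same setting in brackets. They were 3 in edgeR (3.27%), 19 by the DESeq2 Wald test (7.78%) and 8 with scaling by library size only (3.68%). With at least 10 counts in every library 6 were called (4.64%), and 0 with the span trend removed (3.44%). Without single libraries 0 to 38 were called, the 38 being without control replicate 1 (15.6%). The count higher was 0 in all of these settings. The cause of these shifts was not tested. The median of the structural subunits kept its sign in every alternative. That of the 7 mitochondrially encoded subunits lay between -0.14 and 0.27 without single libraries. The median of the *ndufaf* genes turned from -0.23 to 0.009 with the span trend removed, where *ndufaf1* (0.0472), *ndufaf3* (0.0499), *ndufaf4* (0.0245), *ndufaf6* (-0.10), NDUFS8 (0.15) and *ndufb4* (0.18) also changed sign. Without single libraries *ndufaf4* ran from -0.5095 to 0.1549, NDUFS8 from -0.0882 to 0.0183 and *ndufb4* from -0.4238 to 0.0921, and none of these 3 was called in those runs. With 3 libraries per group and control replicate 1 apart from the others, a missed threshold does not show that a gene was unaltered.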

Other observations

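Genes known to control respiratory chain genes did not fall as a group. Of 12 tested regulators 5 were below 0 and 7 above, with a median log2 fold change of 0.05. In edgeR 0 passed, where 3.27% of all tested genes fell and 1.97% rose, so that 0 of 12 was near the background. At an unadjusted p under 0.05, 1 was lower and 1 higher, beside 13.3% of all tested genes lower and 10.1% higher. DESeq2 called 1 of them lower (7.78% of all genes). Without overlap 1 was lower and 2 higher, beside 15.9% of all tested genes lower and 14.8% higher. *tfam*, which packages mitochondrial DNA and takes part in its transcription, had 38.9, 54.6 and 57.8 CPM in the control libraries. It had 29.0, 31.4 and 33.8 CPM in the rapamycin libraries, without overlap (-0.68, standard error 0.20, adjusted p = 0.0772 from edgeR). *pprc1*, a coactivator of the PGC-1 family, had 19.6, 12.9 and 10.1 CPM against 25.0, 20.6 and 27.9 CPM, higher in every rapamycin library (0.79, adjusted p = 0.117 from edgeR). *nrf1*, which binds promoters of respiratory genes, had a log2 fold change of 0.08.

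Of 12 tested genes of mitochondrial NADH and electron supply, 1 fell (8.33%, beside 3.27% of all tested genes) and the median was -0.15. *etfb*, a subunit of the flavoprotein that carries electrons from fatty acid oxidation to ubiquinone beside complex I, had 149, 253 and 218 CPM in the control and 108, 99.8 and 108 CPM in the rapamycin libraries. Its log2 fold change was -0.98 (edgeR SE 0.21, adjusted p = 0.0332, and up to 0.169 without single libraries). Its partner gene *etfa* had -0.43 (adjusted p = 0.301 from edgeR), with control replicate 1 below every rapamycin library. *gpd2*, which feeds electrons from glycerol phosphate to ubiquinone, had 28.5, 12.1 and 12.5 CPM against 30.9, 34.5 and 32.6 CPM (0.88, adjusted p = 0.139 from edgeR), and control replicate 1 lay next to the rapamycin libraries.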
